A study of Mus musculus with 4 samples.

Results

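Potassium channel genes were followed across the excitatory neurons of the mouse ventromedial prefrontal cortex (vmPFC). A gene was taken when its symbol began with Kcn and when it had at least 50 unique molecular identifiers (UMIs, counted transcript molecules) summed over the neurons that the authors kept and named. Of 99 Kcn genes listed among 31053 genes, 78 met this rule, and 15248 genes of all kinds reached the same count. The other 21 Kcn genes held between 0 and 40 UMIs each, with Kcnj5 at 40 and Kcnj1, Kcnj15, Kcnk5 and Kcnk16 at 0. The 78 genes comprised 6 Kv1, 2 Kv2, 4 Kv3, 3 Kv4 and 9 silent Kv subunit genes, 7 genes of the EAG family, 4 Kv7, 4 BK, 3 SK and 2 sodium-activated channel genes, 11 inward rectifiers and 10 K2P leak channels. The rest were 3 Kvβ, 4 KChIP and 1 KCNE subunit gene, the regulator Kcnrg and 4 antisense transcripts.

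The data were single-cell RNA sequencing counts (10x Genomics, 3' chemistry) from male C57BL/6 mice. The mice were 8 weeks old when rAAV2-retro-EGFP-barcode viruses, 5 in all, were injected on one side into the agranular insular cortex (AI), the dorsomedial striatum (DMS), the mediodorsal thalamus (MD), the basolateral amygdala (BLA) and the lateral hypothalamus (LH). All animals received all 5 viruses, so there was no uninjected group. The 3 unsorted libraries, replicates 1, 2 and 3, came from mice 1, 2 and 3, and the only sorted library held EGFP-positive cells pooled from mice 4 to 6. The viral EGFP transcript carries the barcode, and retrograde virus enters axon terminals, so barcode UMIs are the sign of labelling used here. The deposited matrices hold 1 barcode feature, which does not separate the targets, and which of the 5 viruses it counts was not tested. A neuron without a barcode UMI may be unlabelled, may project elsewhere or may have been missed by the sequencing, and these cannot be told apart here. A UMI can also come from free RNA. In the unsorted libraries 56.7% to 60.7% of neurons had 1 or more barcode UMIs and 37.8% to 39.9% had 5 or more. Of the other cells with 10 or more summed UMIs of 4 microglial markers, a cut chosen after the data were seen, 5.57% to 5.59% had 1 or more and 0.589% to 1.73% had 5 or more, at median depths of 4228.5 to 4474 UMIs against 21343.5 to 23213 in the neurons. In the sorted library 20.7% of 58 such cells had 1 or more and none had 5 or more, beside 87.6% and 56.1% of its neurons. Of all 188 other cells of the sorted library that passed the filters, 40.4% had 1 or more and 8.51% had 5 or more. In the unsorted libraries these shares of all other cells were 5.41% to 6.46% and 1.36% to 1.69%. Shares were not thinned to a common depth, and the part of free RNA in the neurons was not tested.

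The 9368 neurons fall into 7 clusters named by the authors, with 5092 neurons in L6-Syt6, 1409 in L5-S100b, 1118 in L6-Npy, 689 in L2/3-Rorb, 382 in L5-Bcl6, 357 in L2/3-Calb1 and 321 in L5-Htr2c. The gene in each name was highest in its own cluster, from 49.5 CPM (UMIs of a gene per 1000000 UMIs) for S100b in L5-S100b to 395 CPM for Htr2c in L5-Htr2c. Libraries held between 51387792 and 60853645 UMIs in neurons, and the median neuron had 21343.5 to 23213 UMIs in unsorted libraries and 31669 in the sorted library. Between 5 and 12 neurons of a library shared a 10x cell barcode with a neuron of another library. The sorted library gave only 4 neurons in L5-Htr2c, so the level of that cluster rests on the 3 unsorted libraries. Each marker of interneurons, astrocytes and microglia had cluster means between 0 and 18.2 CPM in the neurons. Among oligodendrocyte-lineage, endothelial and mural markers, Mbp ran from 24.2 CPM in L6-Syt6 to 105 CPM in L5-Bcl6. Rgs5 was highest in L5-Htr2c at 29.1 CPM, and the rest of these markers had cluster means of at most 14.5 CPM.

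Potassium channels set the resting potential, the shape of the action potential and the firing pattern of a neuron. Voltage-gated (Kv) channels are tetramers of pore-forming subunits. Kv1 channels act near threshold on axons, Kv2 channels form the slow delayed rectifier of the soma, Kv3 channels repolarize quickly, and Kv4 channels with their calcium-sensing KChIP partners carry the dendritic A-type current. Kv7 channels carry the M-current, BK and SK channels open with calcium, inward rectifiers and K2P channels hold the membrane near rest, and silent subunits make no channel alone but modify Kv2. Pyramidal neurons of different layers fire differently, and combinations of these subunits are among the properties that distinguish them.

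The first comparison asked which potassium channel genes differed in level between the clusters. Because the authors made the clusters from the expression of these same cells, the differences are a description and carry no test. Counts were summed over the neurons of a library and cluster and given as CPM, and levels are compared for a gene between clusters and not between genes. A gene parted the clusters when the mean of its highest cluster was at least 4 times that of its lowest and their libraries did not overlap. A lowest cluster under 3 counts per library was set to that floor. By this rule 25 of the 78 genes (32.1%) parted the clusters, beside 14.4% of the 15248 genes with the same count. The median ratio of highest to lowest cluster was 3.01 for the Kcn genes and 1.75 for all of them. The ratio ran from 2 to under 4 in 32 genes and stayed under 2 in 13, and 8 genes were given no ratio because even their highest cluster mean was at or under the floor. Kcnj12 (4.02-fold) lay just inside the limit, and Kcnk10 (3.82-fold) and Kcnh3 (3.81-fold) just outside.

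**Figure D1:**
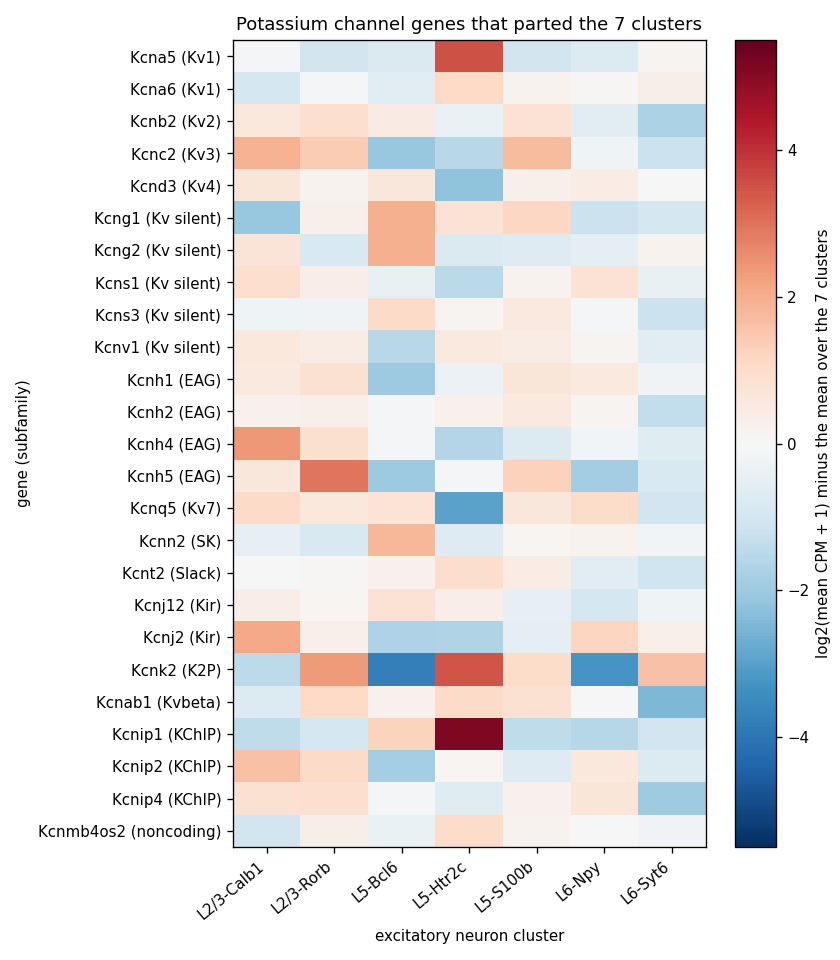
Heat map of the 25 potassium channel genes that parted the clusters, in rows by subfamily, against the 7 clusters in columns; colour gives log2(mean CPM + 1) minus the mean of the row, over 4 libraries (3 for L5-Htr2c). L5-Htr2c stands out by Kcnip1, Kcna5 and Kcnk2, L5-Bcl6 by Kcng1, Kcng2 and Kcnn2, and L6-Syt6 by low Kcnab1, Kcnip4 and Kcnb2.

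Among the Kv1 genes, which encode low-threshold channels, Kcna5 and Kcna6 were highest in L5-Htr2c. Kcna5 stood at 27.9, 19.5 and 28.1 CPM in unsorted replicates 1, 2 and 3 of L5-Htr2c, and no library of any other cluster passed 2.46 CPM. Kcna6 stood at 254, 243 and 228 CPM there, and its next cluster, L6-Syt6, lay between 135 and 146 CPM. Both genes thus had every L5-Htr2c library above every library of the other clusters. Kcna6 was lowest in L2/3-Calb1, at 56.3 ± 4.7 CPM (SD, n = 4). Their neighbour Kcna1 did not share this pattern. It was highest on average in L6-Syt6 (96.1 ± 23.4 CPM), where the libraries overlapped those of L6-Npy, and it stood at 54.1 ± 2.6 CPM in L5-Htr2c (n = 3). The 3 genes lie within 208124 bases of chromosome 6 on the minus strand (GRCm38, GENCODE vM21), with Kcna5 at 126532551 to 126535412, Kcna1 at 126640397 to 126646384 and Kcna6 at 126708329 to 126740674.

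The promoter windows of Kcna5 and Kcna6, neighbours that were both highest in L5-Htr2c, are shown to let their start sites be compared. Each runs from 250 bases before to 50 bases after the RefSeq start on GRCm38.p6, 5′ to 3′ on the minus strand, and capitals mark matches on either strand to a TATA box (TATAAA), a GC box (GGGCGG), an E-box (CANNTG) or a CRE core (TGACGT). The Kcna5 window is chr6:126535506-126535805 and the Kcna6 window chr6:126740625-126740924.
Kcna5: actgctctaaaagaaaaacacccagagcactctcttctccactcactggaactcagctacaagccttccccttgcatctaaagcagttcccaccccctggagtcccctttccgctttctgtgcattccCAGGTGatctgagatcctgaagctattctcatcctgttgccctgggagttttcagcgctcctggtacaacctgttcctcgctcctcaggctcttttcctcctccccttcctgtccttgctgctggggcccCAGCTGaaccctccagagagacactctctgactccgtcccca
Kcna6: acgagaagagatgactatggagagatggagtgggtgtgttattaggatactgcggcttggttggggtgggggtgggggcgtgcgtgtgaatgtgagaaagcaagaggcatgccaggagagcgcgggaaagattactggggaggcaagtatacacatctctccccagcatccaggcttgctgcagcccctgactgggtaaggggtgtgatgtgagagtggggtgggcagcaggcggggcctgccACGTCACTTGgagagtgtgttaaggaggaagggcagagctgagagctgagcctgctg
The Kcna5 window held 2 CANNTG matches, and the Kcna6 window held 1 CANNTG match that overlaps its 1 TGACGT match. Neither held TATAAA or GGGCGG. Of 32851 RefSeq promoter windows of this length, 72.3% held CANNTG, 7.51% TGACGT, 35.7% GGGCGG and 13.6% TATAAA, so the CANNTG matches are common. The RefSeq start of Kcna5 lies 143 bases from the GENCODE start, and that of Kcna6 is the same base.

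Among the Kv2 genes, Kcnb2 was highest in L2/3-Rorb (150 ± 15 CPM) and lowest in L6-Syt6. It stood there at 22.9 CPM in the sorted library and at 21.1, 22.4 and 23.6 CPM in unsorted replicates 1, 2 and 3. No library of another cluster was below 42.5 CPM, so L6-Syt6 stood clear below the other clusters.

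Kcnc2 (Kv3.2), which in cortex is best known from fast-spiking interneurons, parted the excitatory clusters into high and low groups. It stood at 33.6 ± 5.4 CPM in L2/3-Calb1, 29.2 ± 2.8 CPM in L5-S100b and 23.4 ± 2.7 CPM in L2/3-Rorb. It was at 6.84 ± 0.97 CPM in L6-Npy, 3.05 ± 0.40 CPM in L6-Syt6, 2.15 ± 0.43 CPM in L5-Htr2c and 1.15 ± 0.91 CPM in L5-Bcl6 (SD, n = 4, 3 for L5-Htr2c). The libraries of L2/3-Calb1 and L5-S100b overlapped. Those of L5-S100b (27.1 CPM or more) lay just above those of L2/3-Rorb (26.8 CPM or less). In the unsorted cells that passed the same filters and were not among the named neurons, a mix of interneurons and glia, Kcnc2 stood at 77.3 ± 8.3 CPM (n = 3). The inhibitory markers Gad1 and Gad2 were at 291 and 293 CPM in those cells and at 1.02 and 0.85 CPM in L5-S100b. Kcnc4, the Kv3 gene with the most UMIs, did not part the clusters, from 64.3 ± 12.0 CPM in L5-Bcl6 to 106 ± 6.2 CPM in L5-Htr2c.

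Kcnd3 (Kv4.3), an A-type channel gene, was set apart by a low level in L5-Htr2c. That cluster held 12.8, 7.67 and 8.48 CPM in unsorted replicates 1, 2 and 3, whereas the other 6 clusters held at least 47.2 CPM in every library. Kcnd2, the Kv4 gene with the most UMIs, ran the other way on average, at 159 ± 11 CPM in L5-Htr2c and 88.9 ± 13 CPM in L6-Syt6, a 1.78-fold ratio. The KChIP genes, whose products bind Kv4 channels, parted the clusters in 3 of 4 cases.

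Kcnip1 had its mean in L5-Htr2c 16.8 times that of the next cluster, the widest such gap of the 25 genes. It stood at 105, 118 and 121 CPM in unsorted replicates 1, 2 and 3 of L5-Htr2c. The next cluster, L5-Bcl6, held 5.14 to 10.3 CPM, and every library of the other 5 clusters was at 1.56 CPM or below. Cells outside the named neurons also held Kcnip1, at 44.5 ± 1.3 CPM (n = 3). Kcnip2 was highest in L2/3-Calb1, at 121, 111 and 108 CPM in unsorted replicates 1 to 3 and 115 CPM in the sorted library. Its lowest cluster was L5-Bcl6 at 9.27 ± 4.06 CPM, 12.3-fold lower. Kcnip4 had its highest mean in L2/3-Rorb (181 ± 22 CPM), which overlapped L2/3-Calb1, and its lowest in L6-Syt6. There it stood at 19.3 CPM in the sorted library and 24.9, 26.7 and 23.5 CPM in the unsorted ones, below the 57.6 CPM or more of every other library with enough neurons. Kcnip3 did not part the clusters but was highest in L6-Syt6 in all 4 libraries, at 123 ± 10 CPM. The KChIP genes therefore differed in their highest cluster, with Kcnip1 in L5-Htr2c, Kcnip2 in L2/3-Calb1, Kcnip4 in L2/3-Rorb and Kcnip3 in L6-Syt6.

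**Figure D2:**
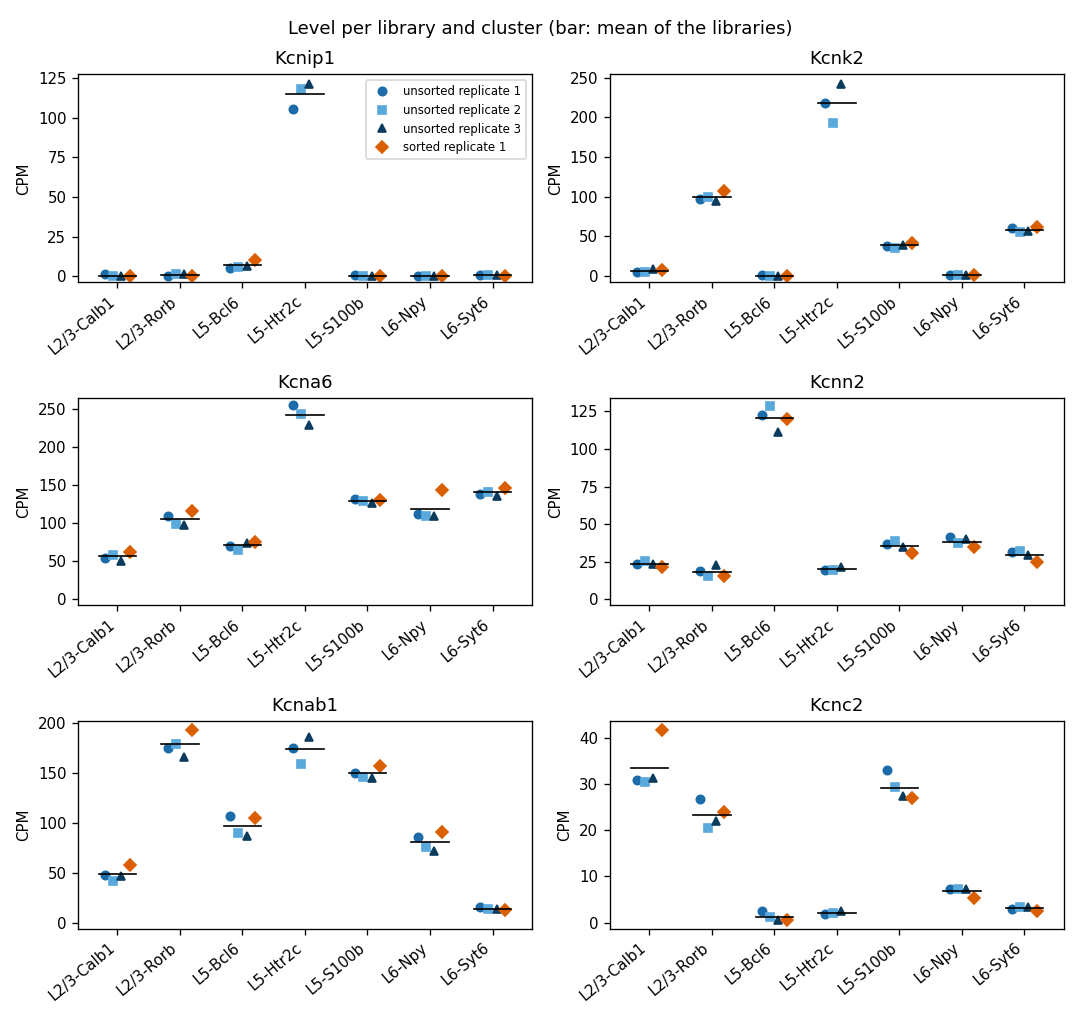
CPM of 6 potassium channel genes in each library (points; circles, squares and triangles for unsorted replicates 1 to 3, diamonds for the sorted library) and cluster, with the mean of the libraries as a bar. L5-Htr2c stands above the rest for Kcnip1, Kcnk2 and Kcna6, L5-Bcl6 for Kcnn2 at 111 to 129 CPM, and L6-Syt6 lies below the rest for Kcnab1 at 12.7 to 15.7 CPM.

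The silent subunit genes gave 5 parting genes of 9. Kcng1 was highest in L5-Bcl6, at 71.0, 79.1 and 76.2 CPM in unsorted replicates 1 to 3 and 106 CPM after sorting, and lowest in L2/3-Calb1 at 4.09 ± 1.35 CPM. Kcng2 was highest in the same cluster, at 17.2 to 25.2 CPM against 11.6 CPM or less in every other library. Kcns3 also had its highest mean in L5-Bcl6 (4.45 ± 0.78 CPM), where it overlapped L5-S100b, and lay at 0.18 ± 0.04 CPM in L6-Syt6. Kcns1 was lowest in L5-Htr2c at 2.46 ± 1.69 CPM and highest in L2/3-Calb1 at 17.2 ± 2.5 CPM. Kcnv1 stood out by its low level in L5-Bcl6, 14.2 to 19.4 CPM, beside 31.5 CPM or more in every library elsewhere. Kcnf1, the silent gene with the most UMIs, ranged only from 60.4 ± 22.5 CPM in L2/3-Calb1 to 128 ± 20 CPM in L5-Bcl6.

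In the EAG family, 4 of 7 genes parted the clusters. Kcnh5 (Eag2) was highest in L2/3-Rorb, with 27.2, 23.6 and 31.5 CPM in unsorted replicates 1 to 3 and 47.4 CPM in the sorted library. L5-S100b followed at 6.73 to 14.0 CPM, and L5-Bcl6 held 1 count in unsorted replicate 1 and none in the other libraries. Kcnh1 (Eag1) had its lowest level in L5-Bcl6 (11.6 ± 3.3 CPM), clear of all other clusters, and 89.8 ± 17.6 CPM in L2/3-Rorb. Kcnh4, an elk gene, was highest in L2/3-Calb1 at 12.1 to 20.0 CPM, and no count of it was seen in the L5-Htr2c neurons. Kcnh2, the erg channel, was lowest in L6-Syt6 at 1.52 ± 0.28 CPM and at 8.47 ± 0.59 CPM in L5-S100b. Kcnh7, the family's gene with the most UMIs, had a 3.61-fold ratio and did not pass the rule.

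Of the Kv7 genes, which carry the M-current, Kcnq5 parted the clusters by a low level in L5-Htr2c. It held 5.24, 8.37 and 3.91 CPM in the unsorted replicates there, 24.3 ± 3.4 CPM in L6-Syt6 and 77.0 ± 12.3 CPM or more in the other clusters. Kcnq3, the Kv7 gene with the most UMIs, was highest in L5-S100b (352 ± 46 CPM) and lowest in L6-Npy (112 ± 25 CPM), a 3.15-fold ratio. Low Kcnd3, low Kcnq5 and high Kcnip1 were thus found together in L5-Htr2c. That cluster was the shallowest, with a median of 14555 UMIs per neuron against 19083 to 27083 in the others, and the part of depth in these levels was not tested.

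Among channels opened by calcium or sodium, Kcnn2 (SK2) gave a high level in L5-Bcl6. It stood at 122, 129 and 111 CPM in unsorted replicates 1 to 3 and 120 CPM in the sorted library, and no library of another cluster passed 41.7 CPM. Kcnt2 (Slick) was highest in L5-Htr2c at 77.0 to 84.4 CPM and lowest in L6-Syt6 at 16.9 to 21.2 CPM, and both ends stood clear of all other clusters. Kcnt1 (Slack), the partner with more UMIs, was lowest in L2/3-Rorb at 26.4 ± 4.8 CPM and had a 2.54-fold ratio. Kcnma1, the pore gene of BK channels, differed by only 1.70-fold. Its neuronal β subunit gene Kcnmb4 was highest in L5-Htr2c at 302 ± 28 CPM, clear of the other clusters, and lowest in L2/3-Calb1 at 96.1 ± 4.6 CPM. Kcnmb4os2, an antisense transcript that overlaps the 5′ end of Kcnmb4 on chromosome 10, was highest and lowest in the same clusters, at 61.9 ± 10.3 and 14.6 ± 4.5 CPM. Whether the counting used the strand is not given in the sources used here, and without it the reads of antisense partners cannot be told apart.

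Inward rectifiers and leak channels set the membrane at rest. Kcnj2 (Kir2.1) was highest in L2/3-Calb1, with 23.7, 16.7 and 21.3 CPM in unsorted replicates 1 to 3 and 32.7 CPM in the sorted library, and L6-Npy followed at 10.9 to 13.7 CPM. L5-Bcl6 held 0.80 ± 0.93 CPM and L5-Htr2c 0.86 ± 0.39 CPM, both near the floor. Kcnj9 (GIRK3), the inward rectifier with the most UMIs, differed by 1.80-fold. Kcnk2 (TREK-1) was the only K2P gene of 10 that parted the clusters. It stood at 218, 193 and 242 CPM in L5-Htr2c, 99.5 ± 5.3 CPM in L2/3-Rorb, 58.7 ± 2.5 CPM in L6-Syt6 and 38.6 ± 2.7 CPM in L5-S100b. It was at 6.38 ± 1.95 CPM in L2/3-Calb1, 1.08 ± 0.27 CPM in L6-Npy and 0.48 ± 0.42 CPM in L5-Bcl6. These levels were separated between all neighbouring clusters in the order but the last, where the libraries of L6-Npy and L5-Bcl6 overlapped. The layer 6 clusters were thus unlike for Kcnk2, with 56.1 CPM or more in every library of L6-Syt6 and 1.48 CPM or less in every library of L6-Npy. Kcnk9 (TASK-3), the K2P gene with the most UMIs, had a ratio of 2.07.

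Kcnab1 (Kvβ1), a cytoplasmic subunit that speeds the inactivation of Kv1 channels, was lowest in L6-Syt6, at 15.7, 13.8 and 13.3 CPM in unsorted replicates 1 to 3 and 12.7 CPM in the sorted library. Every library elsewhere held at least 41.3 CPM, and L2/3-Rorb and L5-Htr2c held 178 ± 11.1 and 173 ± 13.5 CPM, which overlapped. Kcnab2, the Kvβ gene with the most UMIs, was lowest in L5-Htr2c (40.6 ± 2.7 CPM) and highest in L6-Npy (86.5 ± 30.4 CPM). Kcnq1ot1, the antisense transcript of the imprinted Kcnq1 locus, had the most UMIs among the antisense transcripts and a 1.76-fold ratio. Kcne3 and Kcnrg were among the genes without a ratio, with cluster means of 1.01 and 1.93 CPM at most, both in L5-Htr2c.

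Counted over clusters, L2/3-Calb1 was the highest cluster of 8 of the 25 parting genes, L5-Htr2c of 6, L2/3-Rorb and L5-Bcl6 of 5 each and L5-S100b of 1. The lowest cluster was L5-Bcl6 for 7 genes and L6-Syt6 for 6. In 18 genes (23.1%, beside 17.7% of all genes) every library of a cluster lay above every library of all others, and L5-Htr2c accounted for 7 of them. In 27 genes (34.6%, beside 11.3% of all genes) every library of a cluster lay below all others, with 10 in L5-Htr2c, 6 in L6-Syt6 and 5 in L5-Bcl6. L5-Htr2c was judged on the 3 unsorted libraries alone and the other clusters also on the sorted library, so these counts are unlike between clusters. Shares of all genes were not counted for single clusters. L5-S100b stood clear in neither direction for any Kcn gene.

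Summed over the members of a subfamily, the clusters differed less. Only the SK sum passed the 4-fold rule, at 135 ± 9 CPM in L5-Bcl6 and 32.8 ± 3.7 CPM in L2/3-Rorb, and Kcnn2 is the SK gene behind it. The K2P sum differed by 2.71-fold, the Kvβ sum by 2.70-fold and the EAG sum by 2.52-fold. The Kv1, Kv3, Kv4, silent Kv, BK, KChIP and inward rectifier sums differed by less than 2-fold. For KChIP, 3 of the 4 genes differed singly by 7.67-fold or more and Kcnip3 by 3.43-fold, and their sum differed by 1.999-fold.

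**Figure D3:**
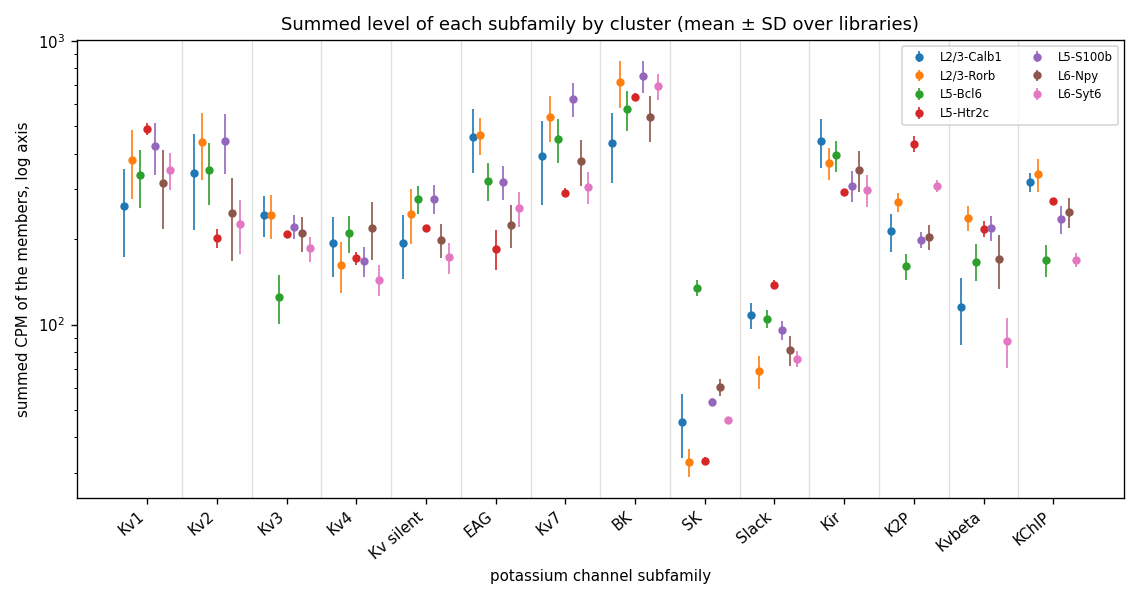
Summed CPM of each potassium channel subfamily (log axis) in the 7 clusters, as mean ± SD over 4 libraries (3 for L5-Htr2c). SK genes in L5-Bcl6 stand clear of the other clusters at 135 CPM, and K2P genes are highest in L5-Htr2c at 435 ± 28 CPM.

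The next comparison asked whether potassium channel genes differed within a cluster between neurons with at least 5 UMIs of the barcode feature (barcode-high) and neurons with none (barcode-zero). Counts were summed per library and group and tested with edgeR's quasi-likelihood test, in which the library was a block, on all genes that passed its filter. Clusters were fitted when 3 or more libraries had at least 10 neurons in both groups. This held for 6 clusters, with 4 libraries in L2/3-Rorb, L5-S100b, L6-Npy and L6-Syt6 and the 3 unsorted libraries in L2/3-Calb1 and L5-Bcl6. L5-Htr2c had 10 barcode-high neurons in all and was not fitted. Calls needed p under 0.05 after Benjamini-Hochberg adjustment over all genes tested, and a log2 fold change of 0.5 or more in size. The replicates of a contrast are 3 single mice and 1 pool.

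In L5-S100b, 958 barcode-high neurons were set against 195 barcode-zero neurons. Of 58 Kcn genes tested, 3 were called, beside 2.7% of all 11477 genes, with 2 higher (1.1% of all genes) and 1 lower (1.6%) in barcode-high neurons. Kcnc2 stood at 39.4, 30.8 and 30.6 CPM in barcode-high neurons of unsorted replicates 1, 2 and 3 and at 31.3 CPM in the sorted library. In barcode-zero neurons of the same libraries it stood at 11.5, 19.4, 17.4 and 15.3 CPM. Every barcode-high value was above every barcode-zero value. The fit gave a log2 difference of 1.12 (SE 0.18, edgeR adjusted p = 9.15e-05), higher in 4 of 4 libraries, and the call held in all 10 alternative settings. Inhibitory markers summed to 0.28 to 10.1 CPM in barcode-high and 0 to 30.0 CPM in barcode-zero neurons, and these ranges overlapped. Kcnc2 lies on chromosome 10, plus strand, from 112271121 to 112467024.

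The promoter window of Kcnc2 (GRCm38.p6, chr10:112270871-112271170, plus strand, around a RefSeq start that is also the GENCODE start) is printed because Kcnc2 had the largest called change, with capitals marking the same motifs.
Kcnc2: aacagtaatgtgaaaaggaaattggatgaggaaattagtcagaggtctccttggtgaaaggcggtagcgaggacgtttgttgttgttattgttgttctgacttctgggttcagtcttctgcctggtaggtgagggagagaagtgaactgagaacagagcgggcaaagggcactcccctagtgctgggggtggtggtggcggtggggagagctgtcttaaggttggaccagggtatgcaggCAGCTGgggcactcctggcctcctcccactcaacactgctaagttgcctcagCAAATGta
It held 2 CANNTG matches and none of the other motifs.

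Kcnv1, a silent subunit gene on chromosome 15 (45106284 to 45114920), was also higher in barcode-high L5-S100b neurons. It stood at 82.3, 72.5, 67.9 and 72.2 CPM in unsorted replicates 1 to 3 and the sorted library, and at 49.4, 33.5, 48.4 and 63.9 CPM in barcode-zero neurons. The groups did not overlap, and the sorted library had the smallest gap. On the log2 scale the difference was 0.65 (SE 0.12, edgeR adjusted p = 0.000464), and without the library block the adjusted p was 0.0960. Kcnip2 was lower in barcode-high neurons in the 3 unsorted libraries, with 16.8, 19.3 and 20.4 CPM against 34.6, 27.0 and 38.7 CPM. In the sorted library it ran the other way, at 19.3 against 13.9 CPM from 10 counts in barcode-zero neurons. The fit gave a log2 fold change of -0.62 (SE 0.18, edgeR adjusted p = 0.0331). The Kcnip2 call held in only 3 of 10 alternative settings, over which the adjusted p ran from 0.00184 to 0.439. It was lost with DESeq2 (adjusted p = 0.439), with no library block (0.333), with neurons of 1 or more barcode UMIs as the high group (0.141), with neurons of 15000 to 40000 UMIs (0.0587), and without unsorted replicate 1 (0.359), 2 (0.105) or 3 (0.206).

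Below the fold limit, 9 more Kcn genes of L5-S100b had an edgeR adjusted p under 0.05, and all 9 were higher in barcode-high neurons. At that p with no fold limit, 11 of the 58 genes were higher and 1 lower, beside 3.34% and 2.64% of all genes. The 9 included Kcnip3 (log2 fold change 0.49, SE 0.09), Kcnt2 (0.48, SE 0.12), Kcnb2 (0.38, SE 0.08), Kcnmb4 (0.37, SE 0.07) and Kcna2 (0.35, SE 0.07). The median log2 fold change of the 58 genes was 0.0752, and that of all genes tested was -0.0036. The barcode-high neurons were deeper, with library medians of 25553.5 to 34389 UMIs against 19306.5 to 28185. The layer 5 markers, a list of 7 genes, summed to 605 to 734 CPM in barcode-high and 359 to 551 CPM in barcode-zero neurons, without overlap. Within a library, layer 2/3 markers were lower in barcode-high neurons in 4 of 4 (66.2 to 87.7 against 70.2 to 120 CPM). Excitatory neuron markers were higher in 4 of 4 (2193 to 2687 against 1839 to 2481 CPM), and both pairs of ranges overlapped. The part of depth and of these marker lists in the Kcn differences was not tested. With neurons of 15000 to 40000 UMIs only, 4 Kcn genes were called.

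In L6-Syt6, 1635 barcode-high neurons were set against 2327 barcode-zero neurons. Of 63 Kcn genes tested, 4 were called, beside 1.67% of all 13030 genes, and all 4 were lower in barcode-high neurons (0.867% of all genes were called lower and 0.806% higher). Kcnn2 stood at 24.6, 25.2 and 21.8 CPM in barcode-high neurons of unsorted replicates 1, 2 and 3 and 20.0 CPM in the sorted library, against 35.3, 35.2, 32.8 and 37.9 CPM in barcode-zero neurons. The groups were well apart, with a log2 fold change of -0.55 (SE 0.07, edgeR adjusted p = 0.00311). Kcnab1 stood at 12.6, 9.40, 9.26 and 7.61 CPM against 18.1, 17.7, 16.6 and 15.97 CPM in the same order of libraries. Its groups did not overlap, with a log2 fold change of -0.75 (SE 0.10, edgeR adjusted p = 0.00421).

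Kcng1 stood at 8.90, 5.21, 7.02 and 7.26 CPM in barcode-high and 11.9, 12.6, 11.1 and 14.5 CPM in barcode-zero L6-Syt6 neurons, again without overlap, a log2 fold change of -0.75 (SE 0.14, edgeR adjusted p = 0.0166). Kcnip4 stood at 16.8, 16.2, 17.7 and 14.9 CPM against 28.8, 31.5, 27.3 and 16.3 CPM. The unsorted libraries were far apart, whereas the sorted library differed little and its barcode-zero value lay among the barcode-high ones. With a log2 fold change of -0.68 (SE 0.10) the edgeR adjusted p was 0.00907. Each of the 4 genes was lower in 4 of 4 libraries. All 4 calls were lost without unsorted replicate 2, with log2 fold changes from -0.70 to -0.56 and adjusted p from 0.0534 to 0.117. Kcnip4 was also lost without unsorted replicate 1 (adjusted p = 0.0857) or 3 (0.0562), Kcng1 without replicate 3 (0.0781), and Kcnn2 fell under the fold limit without the sorted library (-0.50). Over 10 alternative settings the call held in 9 for Kcnab1, 8 for Kcng1, 6 for Kcnn2 and 5 for Kcnip4. With L6-Syt6 neurons of 15000 to 40000 UMIs only, 3 Kcn genes were called. Of the 4 genes, Kcnab1 and Kcnip4 have their lowest cluster mean in L6-Syt6. Below the fold limit, Kcnk2, Kcnb2 and Kcna2 were lower and Kcnj6 and Kcnq5 higher in barcode-high neurons at an edgeR adjusted p under 0.05. With no fold limit 7 of the 63 genes were lower and 2 higher at that p, beside 2.63% and 4.64% of all genes. Kcnab1 lies on chromosome 3 (65109384 to 65378223, plus strand), Kcnip4 on chromosome 5 (48389502 to 49524907, minus strand) and Kcng1 on chromosome 2 (168260117 to 168281736, minus strand).

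Marker lists also differed between the same L6-Syt6 groups. Endothelial and mural markers, 5 genes with none at 0, summed to 9.04 to 19.6 CPM in barcode-high and 29.7 to 38.3 CPM in barcode-zero neurons. Immediate early genes, 6 in number, summed to 3831 to 4160 CPM against 2506 to 3347 CPM, and median UMIs were 24582 to 38604 against 21684 to 30096.5. The markers of the oligodendrocyte lineage (17.1 to 25.5 against 20.1 to 34.2 CPM), of layer 5 (328 to 417 against 379 to 431 CPM) and of layer 6 (660 to 782 against 681 to 868 CPM) had ranges that overlapped, but within a library each of these lists was lower in barcode-high neurons in 4 of 4. Over all L6-Syt6 neurons, Rgs5 had a mean of 16.6 CPM, and the rest of the endothelial and mural list had 1.20 to 3.75 CPM. Rgs5 was also at 25.0 CPM in L5-Bcl6 and 29.1 CPM in L5-Htr2c. Mbp had 24.2 CPM in L6-Syt6, and the rest of the oligodendrocyte list had 0.39 to 1.40 CPM. Both sums thus follow mainly Rgs5 and Mbp, and single markers were not compared between the groups. The part of the marker lists and of depth in the Kcn differences was not tested. Kcnc2, at 2.34, 1.64, 2.75 and 1.01 CPM against 3.69, 3.97, 3.21 and 5.94 CPM, was lower in all 4 libraries of L6-Syt6 and was not called (log2 fold change -0.92, SE 0.29, edgeR adjusted p = 0.0857). That is the opposite sign to its call in L5-S100b.

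**Figure D4:**
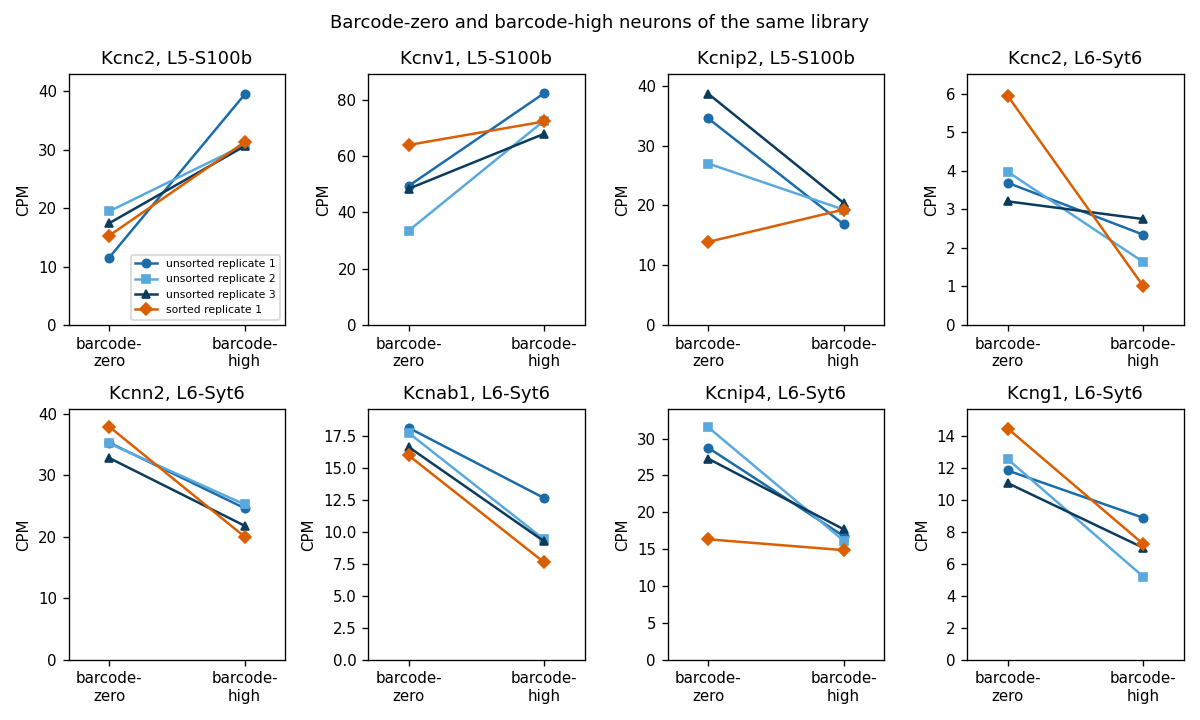
CPM in barcode-zero and barcode-high neurons of the same library, joined by a line, for the 7 called genes and for Kcnc2 in L6-Syt6. Every line rises for Kcnc2 and Kcnv1 in L5-S100b and every line falls in L6-Syt6, whereas the sorted library (diamonds) runs against the others for Kcnip2 in L5-S100b.

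No Kcn gene was called by edgeR or by DESeq2 in the other 4 clusters. Among all genes, edgeR called 0.801% in L6-Npy (0.617% higher, 0.183% lower), 0.18% in L2/3-Calb1 (0.156% and 0.024%), 0.139% in L2/3-Rorb (0.0996% and 0.0398%) and 0.0686% in L5-Bcl6 (0.0457% and 0.0229%). In L2/3-Rorb, 11 of 51 genes had an unadjusted edgeR p under 0.05 (6.78% of all genes did, 17.2% in L5-S100b and 25.4% in L6-Syt6), in L6-Npy 9 of 49 (10.6%), in L2/3-Calb1 3 of 45 (5.67%) and in L5-Bcl6 3 of 43 (6.62%). Kcnip2 came nearest in L2/3-Rorb. It stood at 63.2, 67.3, 67.0 and 88.8 CPM in barcode-high neurons and 91.7, 85.4, 97.7 and 119 CPM in barcode-zero neurons of unsorted replicates 1 to 3 and the sorted library, lower in each of the 4. Its log2 fold change of -0.47 (SE 0.11, edgeR adjusted p = 0.0378) missed the fold limit. Kcnc2 in L2/3-Calb1 had a log2 fold change of 0.74 (SE 0.24, edgeR adjusted p = 0.479) and was higher in 3 of 3 libraries, at 42.4 ± 1.5 against 25.4 ± 4.1 CPM. In L2/3-Rorb it was at 26.1 ± 3.3 against 14.5 ± 4.2 CPM (log2 fold change 0.79, SE 0.23, edgeR adjusted p = 0.172), higher in 4 of 4. Kcnip4 in L5-Bcl6 (log2 fold change 0.34, edgeR adjusted p = 0.748) and Kcnh3 in L6-Npy (-0.28, 0.220) had the smallest p of their clusters and were not called.

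Whether the barcode contrast differed between clusters was tested directly, in a single edgeR fit over the 4 clusters with all libraries, as equality of the 4 effects (3 degrees of freedom). Of 61 Kcn genes tested, 15 had unequal effects at an adjusted p under 0.05, beside 7.37% of all 12081 genes. Kcnab1 led them, with log2 fold changes of -0.75 in L6-Syt6, 0.33 in L2/3-Rorb, 0.06 in L5-S100b and 0.23 in L6-Npy (F = 20.4, edgeR adjusted p = 1.48e-05). Kcnc2 followed, with -0.92, 0.79, 1.12 and 0.53 in the same order (F = 14.2, edgeR adjusted p = 0.000248). In 13 of the 14 described the lowest of the effects was in L6-Syt6, where 12 were below 0, and in 10 the highest was in L5-S100b, where 11 were above 0. Kcnip2 was the exception at the L6-Syt6 end, with its highest effect there (0.17) and its lowest in L5-S100b. The same counts were not made for all genes with unequal effects, so the order is not shown to be particular to Kcn genes.

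The 14 of these genes that are described span several roles. They include Kv1 (Kcna2, Kcna6), Kv2 (Kcnb2), Kv3 (Kcnc2) and Kv7 (Kcnq3) pore genes, the silent subunit Kcnv1, SK2 (Kcnn2), Slick (Kcnt2) and TREK-1 (Kcnk2). The remainder are the BK β subunit Kcnmb4, Kvβ1 (Kcnab1) and the KChIP genes Kcnip2, Kcnip3 and Kcnip4. Kcnb2 had log2 fold changes of 0.38 in L5-S100b and -0.35 in L6-Syt6 (F = 13.9), Kcna2 of 0.35 and -0.31 (F = 13.2) and Kcnk2 of 0.34 and -0.29 (F = 11.5). No inward rectifier, Kv4 or EAG gene was among them, and whether subfamilies differ in this respect was not tested. The count fell to 8 without unsorted replicate 2 and to 8 without unsorted replicate 3.

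**Figure D5:**
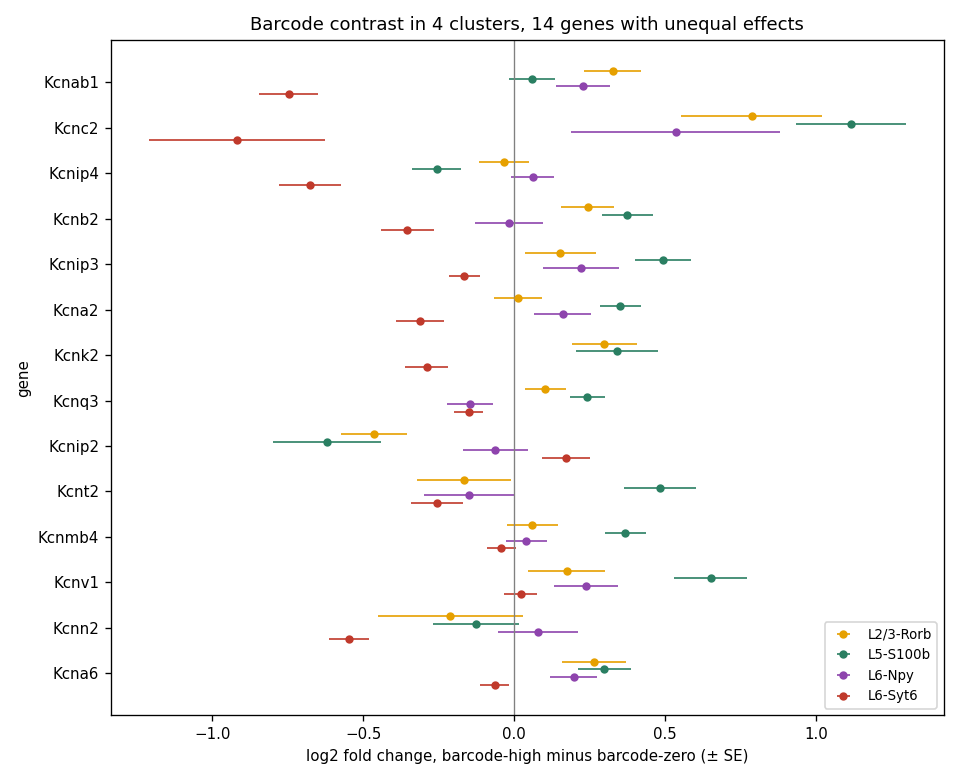
Log2 fold change of barcode-high over barcode-zero neurons (points, ± SE from the fit of each cluster) in 4 clusters for 14 potassium channel genes with unequal effects. L6-Syt6 is the leftmost cluster for 13 genes, and L5-S100b the rightmost for 10.

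Genes whose products bind, move or work beside potassium channels were read as a further list of 38, which included the Kv4 partners Dpp6 and Dpp10, the Kv1 complex genes Cntnap1 and Cntnap2, the Hcn channels and the sodium-potassium pump. In L5-S100b 2 of 33 tested were called, beside 2.7% of all genes, and both were higher in barcode-high neurons (1.1% of all genes). They were Cntnap2, a cell adhesion protein that gathers Kv1 channels beside the node of Ranvier (121 against 68.9 CPM, log2 fold change 0.84, SE 0.10, edgeR adjusted p = 3.10e-07), and Hcn2, a hyperpolarization-activated cation channel (41.7 against 30.4 CPM, 0.51, SE 0.14, edgeR adjusted p = 0.0190). None of these partner genes was called by edgeR in the other 5 clusters. The unadjusted edgeR p was under 0.05 for 17 of 33 in L6-Syt6 (25.4% of all genes), 4 of 33 in L6-Npy (10.6%), 1 of 33 in L2/3-Rorb (6.78%), 1 of 30 in L2/3-Calb1 (5.67%) and 2 of 30 in L5-Bcl6 (6.62%). DESeq2 calls were not tallied for the partner genes.

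Within a cluster, the sorted library held higher levels of many potassium channel genes than the unsorted ones, a comparison chosen after the values were seen and made without a test, because there is 1 sorted library. Genes with at least 10 UMIs in each of the 4 libraries were compared in 6 clusters. In L2/3-Calb1 17 of 47 Kcn genes were 1.5-fold or more above every unsorted library (11.3% of 9241 genes were), and in L6-Npy 8 of 55 (5.68%), in L2/3-Rorb 8 of 56 (5.6%), in L5-Bcl6 4 of 48 (4.14%), in L5-S100b 5 of 60 (3.16%) and in L6-Syt6 2 of 67 (3.25%). No Kcn gene was 1.5-fold below every unsorted library in any of the 6, whereas 8.69%, 6.98%, 6.93%, 4.63%, 3.87% and 1.38% of all genes were in L2/3-Calb1, L6-Npy, L2/3-Rorb, L5-Bcl6, L5-S100b and L6-Syt6. Kcna2 was above in 5 of 6 clusters, at 1.63 to 2.22 times the unsorted mean. The median log2 ratio of sorted to unsorted was 0.22 to 0.53 for the Kcn genes and 0.08 to 0.18 for all genes compared. The sorted library was deeper (31669 UMIs for the median neuron against 21343.5 to 23213), and in these 6 clusters the median neuron had 2.73% to 4.52% mitochondrial counts after sorting against 5.89% to 8.31% in unsorted libraries. Sorting, pooling of animals, depth and mitochondrial share cannot be told apart here.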

How the data were processed

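The authors deposited a filtered gene-by-cell matrix of UMI counts per library, which per the labels was made with Cell Ranger on mm10 (the methods add the viral barcodes to it). A deposited table of the kept excitatory neurons gives library, cluster, total counts and the percent of mitochondrial counts. The authors used Seurat 3.1.4 and Scanpy for filtering and clustering. Doublets were not called again.

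Counts were summed per library, cluster and barcode group (neurons with 1 to 4 barcode UMIs in neither group) and scaled to CPM. Sums of fewer than 20 neurons per library and cluster were left out of cluster means. Group contrasts used edgeR 4.0.16 in R 4.3.3 (TMM factors, filterByExpr, quasi-likelihood F test), tested on simulated data first. DESeq2 1.42.0 was an alternative. Both groups of a library come from the same animals, so the library was a block. Cells outside the named neurons passed 500 to 8000 genes, 1000 to 60000 UMIs and under 20 percent mitochondrial counts. Replicate libraries were not duplicates (chi-square over the Kcn genes of the unsorted libraries, p = 7.47e-40, a test of counts).

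Gene positions come from GENCODE vM21, and promoter windows from RefSeq (GRCm38.p6), which held 54 of the 78 genes. Named genes were the 20 with the highest ratio among those that parted the clusters, the gene with most UMIs in each subfamily, every gene called in a contrast or in the test of equal effects, and in a cluster without calls the gene with the smallest p. Kcna1, Kcnmb4os2, Kcnj12, Kcnk10, Kcnh3 among clusters, and the genes of the closing section fall outside that rule and were named after their values were seen. Counts cover all 78 genes, but the single values of 1 gene are not reported here. The genes and lists were chosen with earlier results of these data known.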

Additional observations from a re-analysis of the deposited data

Results flagged for a closer look

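The 14 potassium channel genes listed here were set aside because their barcode effect differed between L2/3-Rorb, L5-S100b, L6-Npy and L6-Syt6 in edgeR's test of equal effects with 3 degrees of freedom. Subunits that modify other channels gave F = 20.41 for Kcnab1, 14.12 for Kcnip4, 13.22 for Kcnip3, 9.989 for Kcnip2, 8.889 for Kcnmb4 and 7.541 for Kcnv1. Pore genes gave F = 14.22 for Kcnc2, 13.88 for Kcnb2, 13.15 for Kcna2, 11.45 for Kcnk2, 9.996 for Kcnq3, 9.347 for Kcnt2, 5.781 for Kcnn2 and 5.604 for Kcna6. Kcnk2 was not tested in the fit of L6-Npy alone, so its effect there is not given. Groups of 3 or fewer samples were not examined for single libraries that stand apart.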

How the results depend on the processing

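The count of 25 genes that parted the clusters became 54 at 2-fold, 13 at 8-fold and 23 to 27 when a library was left out. In L5-S100b the 3 calls became 6 with no filter on low counts, 1 with no replicate block, 12 on adjusted p alone and 2 to 6 when a library was left out. In L6-Syt6 the 4 calls became 2 for neurons with 1 or more barcode UMIs, 9 on adjusted p alone and 0 to 4 when a library was left out (0 without unsorted replicate 2, 2 without unsorted replicate 3). In L2/3-Rorb the count of 0 became 1 on adjusted p alone and 0 to 2 when a library was left out. The count of 15 unequal effects became 8 to 18 when a library was left out, and fewer samples then enter the fit. The causes of the other changes were not tested. For the 7 called log2 fold changes, 50 of 70 alternative values kept the call and 20 lost it. For the 4 named values that were not called, 37 of 38 stayed uncalled and 1 became a call. None changed sign. The replicate block is by library, and dropping it also lost Kcnip4 in L6-Syt6 (adjusted p = 0.0833). DESeq2 called 2 Kcn genes in L5-S100b and 4 in L6-Syt6. Low counts limit the silent genes, and barcode-zero neurons of the sorted library (24 in L5-S100b) limit its values.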

Other observations

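Some potassium channel genes had few UMIs in the neurons and more in the other cells that passed the filters in the unsorted libraries. Kcnj10 (Kir4.1), the main inward rectifier of astrocytes and oligodendrocytes, stood at 52.5 ± 0.4 CPM in those cells and 0.39 ± 0.04 CPM in the neurons (SD, n = 3). Kcnk13 stood at 29.8 ± 0.8 against 0.23 ± 0.09 CPM, Kcnmb2 at 18.5 ± 1.9 against 0.55 ± 0.08 CPM and Kcnj16, a partner of Kcnj10, at 10.2 ± 0.4 against 0.39 ± 0.04 CPM. These 4 genes are among the 78 by their UMI sum, and their level per cell type outside the neurons was not analysed here.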
